A study of Mus musculus with 60 samples.

Results

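The hippocampi of mice injected with an NMDA receptor antagonist were compared with those of mice that received no injection. The drug side held 36 arrays, 12 each for ketamine (20 mg/kg), memantine (15 mg/kg) and phencyclidine (PCP, 5 mg/kg), and the other side held the 12 naive arrays, so that 48 of the 60 hippocampal arrays of the series were used. Mice were taken 1, 2, 4 and 8 h after an intraperitoneal injection, with 3 arrays for each drug and time, and every time had its own 3 naive arrays. The remaining 12 arrays, from saline-injected mice, took no part in the fit and are set beside it only where their values are named. All mice were C57BL/6J males, 8 to 10 weeks old, and each array carried RNA pooled from 2 animals, so that replicate arrays are separate pools. Because the naive mice received no injection, the difference holds the response to the drug together with that to the injection, and a drug was not separated from its vehicle here. All 45281 probes were tested, of which 34885 carried 1 gene symbol.

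NMDA receptors are glutamate-gated cation channels of the excitatory synapse, and ketamine, memantine and PCP all block the open channel. In the rodent hippocampus, strong neuronal activity switches on immediate early genes such as Fos, Arc and the Egr factors within the hour, and many of these transcripts are short-lived. A separate set of genes answers to corticosterone, the stress hormone of mice: it enters the brain, binds the glucocorticoid receptor that is abundant in hippocampal cells, and the receptor acts as a transcription factor on genes such as Sgk1, Tsc22d3, Fkbp5, Per1 and Nfkbia.

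Markers of hippocampal neurons lay above the 75th percentile of all probes on each of the 48 arrays for 11 of 14 genes, and those of astrocytes for 11 of 13. The 5th percentile of intensity was 316 to 859 on 5 arrays of high background (PCP at 1, 4 and 8 h, memantine at 8 h and naive at 8 h, 1 array each), against 99.7 to 240 on the other 43. As RNA came from whole tissue, fewer cells of a type and less RNA per cell cannot be told apart. The array of ketamine at 2 h, replicate 2, stood apart by its striatal markers, with a mean of 10.83 on the log2 scale, against at most 8.70 on the other 47 arrays, and it had the lowest mean of hippocampal neuron markers, 10.59 against 10.81 to 11.15. Leaving it out gave 29 calls over the 4 times, as with all 48 arrays, although Pla1a was then no longer called, and 11 calls at 1 h and 6 at 2 h. The named genes whose call at a single time changed are given with their values. Choroid plexus markers varied from 7.51 to 10.87 on the drug arrays and from 7.66 to 10.51 on the naive arrays, and all 3 naive arrays of 4 h were low. By the array names in the labels, each of the 10 array slides carried all treatments. Positions on a slide, however, followed the treatment (naive arrays at C or D, ketamine at A or B, memantine at B or C, PCP at D or E), and position and group cannot be told apart.

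Over the 4 time points, 28 probes were higher and 1 was lower in drug-treated than in naive mice at an adjusted p under 0.05 (0.0618% of all 45281 probes were higher, 0.00221% lower and 0.064% either), and the 28 stood for 24 genes. The genes were of fuel, lipid and small-molecule metabolism (Plin4, Pnpla2, Ppp1r3g, Sult1a1, Mfsd2a, Pla1a), glucocorticoid-responsive signaling proteins (Sgk1, Tsc22d3, Fkbp5, Nfkbia, Per1), brakes on growth and mTOR (Cdkn1a, Gadd45g, Tob2, Ddit4, Castor1, Txnip), activity-linked genes (Egr4, Dusp5) and a mixed group (Hif3a, Mt1, Pglyrp1, Polr3e, Plekhf1). Plin4 had the largest difference, 1.03 on the log2 scale (SE 0.09), which is 2.04-fold, and no other gene exceeded 0.62. The naive Plin4 level was low, with a mean of 7.42, and the processing compresses the folds of dim probes. Each of the 24 genes was higher in each of the 3 drugs when averaged over the 4 times. In 12 of the 24 genes the difference was above 0 in all 12 combinations of drug and time. The genes were called on the mean of these same differences, and the drugs of each time share naive arrays. Both counts therefore follow in part from the calling, and shares over all probes were not taken. The tests were limma's moderated tests with Benjamini-Hochberg adjustment over all probes, and 2763 probes passed a nominal p of 0.05. Without the 5 high-background arrays and the array with striatal markers the count was 36, and Egr4, Mt1, Pla1a and Polr3e then missed the threshold.

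Promoters of the 24 genes were searched for known regulatory letters in the 250 bases before each annotated start (RefSeq, GRCm38.p6). Of the genes, 23 were matched to 32 windows, and Pla1a was not matched. The palindromic glucocorticoid response element was searched on both strands as GNACA and TGTNC with any 3 bases between them. It was present upstream of Sgk1 (in 1 of its 6 windows), Txnip and Mt1. These were 3 of the 32 windows, against 0.387% of all 32851 windows. The 3 stretches are shown because these genes carried the match, with the element in capitals, and the kappaB site upstream of Nfkbia is shown with them as the gene for the NF-kappaB inhibitor.
Sgk1, chr10:21993662-21993754, plus strand, element from -188: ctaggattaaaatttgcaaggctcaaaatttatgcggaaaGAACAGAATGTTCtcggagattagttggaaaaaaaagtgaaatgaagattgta
Txnip, chr3:96557745-96557837, plus strand, element from -172: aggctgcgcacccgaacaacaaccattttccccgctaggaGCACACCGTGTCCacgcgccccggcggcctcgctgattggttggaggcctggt
Mt1, chr8:94178955-94179047, plus strand, element from -94: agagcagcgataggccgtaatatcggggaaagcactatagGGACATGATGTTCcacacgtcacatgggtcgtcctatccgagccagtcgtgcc
Nfkbia, chr12:55492648-55492716, minus strand, site from -29: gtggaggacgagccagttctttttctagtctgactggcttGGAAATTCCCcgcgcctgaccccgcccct
The kappaB consensus was found upstream of 5 of the genes (Plin4, Nfkbia, Pnpla2, Pglyrp1 and Egr4), in 5 of the 32 windows, against 7.25% of all windows. The E-box CACGTG was upstream of 4 (Sgk1, Gadd45g, Per1 and Fkbp5), in 4 of the 32 windows, against 6.02%. The cyclic AMP response element TGACGTCA was in none of the 32 windows, against 1.55% of all. Its shorter form TGACG was upstream of 7 genes, in 8 of the 32 windows, against 17.8% of all windows. A match of letters is a description of the sequence and not a binding site.

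Plin4 encodes a perilipin that coats lipid droplets. At 1 h its level overlapped fully between groups, with a lowest, median and highest value of 7.11, 7.44 and 7.74 on the 9 drug arrays, against 7.18, 7.21 and 7.74 on the naive arrays. At 2 h the drug arrays lay at 8.17, 8.45 and 9.0, all above the naive values of 7.30, 7.48 and 7.54. At 4 h they lay at 8.33, 8.86 and 10.04, against 7.22, 7.25 and 7.37 in naive mice, and at 8 h at 8.37, 8.92 and 9.58, against 7.45, 7.56 and 7.78. The groups therefore did not overlap from 2 h on, and the highest array was a memantine array of 4 h. All 9 drug arrays were above all 3 naive arrays for 0.466% of probes at 2 h, 0.336% at 4 h and 0.607% at 8 h. The differences were 0.05 (SE 0.19), 1.09, 1.71 and 1.24 at 1, 2, 4 and 8 h, of which the last 3 passed (adjusted p = 0.00937, 8.01e-07 and 0.00211), and without the array with striatal markers the difference at 2 h was 1.06 (adjusted p = 0.0279). Plin4 was the only probe of the whole array to pass at 8 h.

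Pnpla2, the adipose triglyceride lipase that starts the breakdown of lipid droplets, was higher by 0.36 (SE 0.06, adjusted p = 0.000654). On the 9 drug arrays of 2 h it lay at 10.25, 10.38 and 10.62 (lowest, median and highest), against 9.90, 9.93 and 9.94 in naive mice, and at 4 h at 10.03, 10.24 and 10.86, against 9.88, 9.88 and 9.91. The naive arrays were close together and below every drug array at both times. Ppp1r3g, a glycogen-targeting subunit of protein phosphatase 1, lay at 9.60, 9.91 and 10.27 at 1 h, against 9.19, 9.22 and 9.41, and at 9.82, 10.20 and 10.83 at 2 h, against 9.14, 9.44 and 9.60. It did not overlap at either time (0.395% of probes were above all naive arrays at 1 h), and rose by 0.71 at 1 h and 0.90 at 2 h (adjusted p = 0.00811 and 0.000263). By 8 h only 1 of the 9 drug arrays was above all naive arrays, and the difference was 0.09 (SE 0.12). A dimmer Ppp1r3g probe differed by 0.06 over the 4 times (adjusted p = 0.965).

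Sult1a1, a sulfotransferase for phenols and catechols, had its largest difference at 4 h, with 9.41, 9.84 and 10.50 on the drug arrays, against 8.96, 9.17 and 9.21 on the naive arrays. That difference was 0.81 (SE 0.14, adjusted p = 0.0104), and over the 4 times it was 0.53 (adjusted p = 1.68e-05). Mfsd2a, the lysolipid transporter of the brain endothelium, differed by a like amount at all times, with differences of 0.40, 0.62, 0.61 and 0.57 from 1 to 8 h. On 35 of the 36 drug arrays Mfsd2a was above all 3 naive arrays of the same time. Over all times it ranged from 10.13 to 11.21 in drug-treated mice, with a median of 10.56, and from 9.84 to 10.39 in naive mice, with a median of 10.02. Its difference over the 4 times was 0.55 (SE 0.06, adjusted p = 2.9e-07). Without the array with striatal markers Mfsd2a kept 0.62 at 2 h but missed the threshold there (adjusted p = 0.0569). Pla1a, a phospholipase specific for phosphatidylserine, had 0.29 (adjusted p = 0.048) and lost its call in 38 of the 48 fits that left out 1 array (adjusted p = 0.0714 without the array with striatal markers). The 2 other Pla1a probes, both dimmer, had -0.02 and -0.01 (adjusted p = 0.992 and 0.996).

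**Figure D1:**
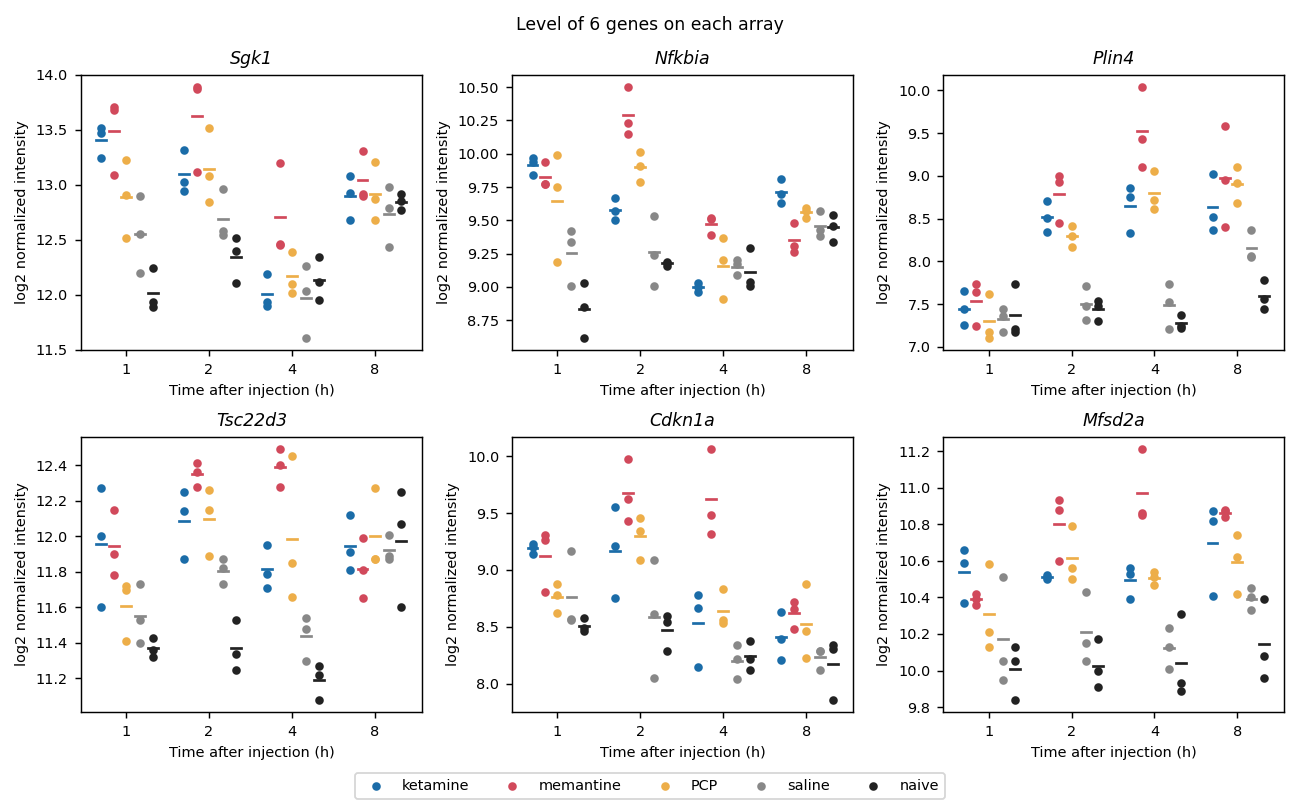
Level of Sgk1, Nfkbia, Plin4, Tsc22d3, Cdkn1a and Mfsd2a on each array (log2 normalized intensity) against time after injection. Points are arrays of 2 pooled mice, in the order ketamine, memantine, PCP, saline and naive at each time, and dashes are means of 3 arrays. Sgk1 and Nfkbia separate from naive mice at 1 and 2 h, Plin4 from 2 to 8 h, and Mfsd2a lies above naive mice at every time on 35 of 36 drug arrays.

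Sgk1, a serine/threonine kinase induced by corticosteroids, had the largest difference of any called gene at 1 h. The drug arrays lay at 12.52, 13.24 and 13.71, against 11.89, 11.93 and 12.24 in naive mice. At 2 h they lay at 12.84, 13.12 and 13.89, against 12.11, 12.40 and 12.52, so that the groups stayed apart. At 4 h the values were 11.90, 12.19 and 13.20, against 11.95, 12.12 and 12.34, and at 8 h 12.68, 12.92 and 13.31, against 12.77, 12.85 and 12.92. The naive level was thus itself higher at 8 h than at the earlier times, and 4 of 9 drug arrays exceeded all naive arrays at 4 h and again at 8 h. Sgk1 rose by 1.24 at 1 h (SE 0.18, adjusted p = 0.000299) and by 0.95 at 2 h (adjusted p = 0.0221), while the differences of 0.15 and 0.10 at 4 and 8 h did not pass.

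Nfkbia encodes the inhibitor that holds NF-kappaB in the cytoplasm. At 1 h it lay at 9.19, 9.84 and 9.99 on the drug arrays, against 8.62, 8.85 and 9.03 on the naive arrays, and at 2 h at 9.50, 9.91 and 10.50, against 9.16, 9.18 and 9.19. The lowest drug array was still above the highest naive array at both times. Nfkbia rose by 0.96 and 0.75 (adjusted p = 1.28e-05 and 0.00229), and the differences at 4 and 8 h were 0.10 and 0.09. A dimmer second probe had 0.21 over the 4 times (adjusted p = 0.847).

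Tsc22d3 encodes GILZ, a leucine zipper protein that carries part of the anti-inflammatory action of glucocorticoids. Its brighter called probe lay at 11.87, 12.25 and 12.41 at 2 h, against 11.25, 11.34 and 11.53 in naive mice, and at 11.66, 11.95 and 12.49 at 4 h, against 11.08, 11.22 and 11.27. Those differences of 0.81 and 0.88 passed (adjusted p = 0.0135 and 0.00683). At 8 h the drug arrays, at 11.65, 11.87 and 12.27, overlapped with naive arrays at 11.60, 12.07 and 12.25, and the difference was -0.05. A second Tsc22d3 probe also passed over the 4 times (0.61, adjusted p = 0.00184), and another, near background, had 0.06.

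Fkbp5, a co-chaperone of the glucocorticoid receptor, lay at 9.33, 9.59 and 10.14 at 2 h, against 9.0, 9.06 and 9.10 in naive mice, without overlap. Its difference over the 4 times was 0.37 (SE 0.07, adjusted p = 0.0114), and no single time passed. Per1, a repressor of the circadian clock with a glucocorticoid-responsive promoter, lay at 10.88, 11.11 and 11.29 at 1 h, against 10.44, 10.52 and 10.83, and differed by 0.32 over the 4 times (adjusted p = 0.00553). A second Per1 probe had 0.24 (adjusted p = 0.0582) and another had 0.00. The other period and output genes were not called, with 0.08 for Per2, -0.07 for Per3 and -0.06 for Dbp. Within the 22 clock genes measured Per1 alone passed, and their median was -0.01. Of all 19057 genes, taken by their brightest probe, 23 passed, so the count says little about clock genes as a group.

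Among the brakes on growth, Ddit4 (REDD1, an inhibitor of mTOR complex 1 induced by stress and glucocorticoids) had 10.98, 11.46 and 11.74 on the drug arrays of 1 h, against 10.21, 10.65 and 10.86 on the naive arrays. At 2 h it had 10.91, 11.40 and 12.00, against 10.25, 10.83 and 10.85. The groups did not overlap at either time, and Ddit4 rose by 0.82 and 0.74 (adjusted p = 0.00889 and 0.0414). Without the array with striatal markers the 2 h difference was 0.75 and no longer passed (adjusted p = 0.0569). Castor1, the arginine sensor that restrains mTOR complex 1 through GATOR2, differed by 0.35 (adjusted p = 0.00512), with its largest difference, 0.58, at 8 h. The 11 other mTOR brakes measured, which include the sestrins, Tsc1, Tsc2 and Deptor, were not called. Of all 19057 genes, taken by their brightest probe, 23 were called.

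Txnip, the arrestin-like protein that binds thioredoxin and lowers glucose uptake, was measured by 2 probes that both passed. The brighter lay at 10.50, 10.87 and 11.36 at 1 h, against 9.78, 9.94 and 10.00 in naive mice, and at 10.40, 10.72 and 11.62 at 2 h, against 10.10, 10.14 and 10.30. Every drug array was above every naive array at these times. Txnip rose by 1.00 at 1 h (SE 0.15, adjusted p = 0.000746), and at 8 h the difference was 0.00. Over the 4 times the probes gave 0.45 and 0.41 (adjusted p = 0.00151 and 0.00174).

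Cdkn1a encodes p21, an inhibitor of cyclin-dependent kinases. Its brightest probe lay at 8.62, 9.14 and 9.31 at 1 h, against 8.46, 8.49 and 8.58 in naive mice, and at 8.75, 9.43 and 9.97 at 2 h, against 8.29, 8.54 and 8.60. At 4 h the drug arrays spread from 8.15 to 10.06 with a median of 8.78, against 8.12, 8.22 and 8.38. In all, 33 of the 36 drug arrays were above all naive arrays of their time. Cdkn1a differed by 0.62 over the 4 times (SE 0.08, adjusted p = 1.68e-05) and by 0.90 at 2 h (adjusted p = 0.0135). Without the array with striatal markers it kept the call at 2 h (0.84, adjusted p = 0.0341). A second probe passed over the 4 times as well (0.47, adjusted p = 0.00184), and its call at 2 h (adjusted p = 0.0335) was lost without that array (adjusted p = 0.0874). Another probe had 0.30 (adjusted p = 0.487). Gadd45g, a growth arrest and stress gene, passed with both of its probes (0.37 and 0.32 over the 4 times), and its brighter probe lay at 11.58, 11.96 and 12.31 at 1 h, against 11.18, 11.25 and 11.33. Tob2, an antiproliferative deadenylation factor, passed only with a dimmer probe (0.36, adjusted p = 0.00184), while its brightest probe had 0.20 (adjusted p = 0.751) and 3 others lay between -0.08 and 0.10. Of the 21 p53 and growth arrest genes measured, 2 passed by their brightest probe (Cdkn1a and Gadd45g), with a median of 0.07. Of all 19057 genes 23 passed in that way, with a median of 0.01.

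Few of the activity-linked genes passed after adjustment, although most immediate early genes had a difference above 0. Egr4, a zinc finger transcription factor, lay at 10.83, 11.24 and 11.52 at 1 h, against 10.45, 10.45 and 10.72 in naive mice, and rose by 0.69 there (adjusted p = 0.0216). Its difference over the 4 times was 0.31 (adjusted p = 0.0377), a call that was lost in 25 of the 48 fits that left out 1 array. Klf2, a Kruppel-like transcription factor, passed at 1 h only, at 8.92, 9.58 and 9.94, against 8.10, 8.49 and 8.66 (difference 1.13, adjusted p = 0.0134). Dusp5, a nuclear phosphatase that inactivates ERK, differed by 0.34 over the 4 times (adjusted p = 0.00512), with 9.27, 9.57 and 9.78 at 1 h, against 8.93, 8.96 and 9.10. The difference of 0.57 at 1 h did not pass on all 48 arrays (adjusted p = 0.158) and passed without the array with striatal markers (adjusted p = 0.0161).

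Fos itself did not pass. It lay at 9.28, 9.97 and 10.59 at 1 h, against 9.09, 9.42 and 9.55 in naive mice, with 8 of 9 drug arrays above all naive arrays, and its difference over the 4 times was 0.30 (SE 0.11, adjusted p = 0.699). Arc, a regulator of AMPA receptor endocytosis, had 10.61, 11.10 and 11.52 at 1 h, against 10.31, 10.40 and 10.65, and 0.23 over the 4 times (adjusted p = 0.702). Egr2 had 0.30 (adjusted p = 0.611) and Dusp1 0.19 (adjusted p = 0.751). Bdnf, the neurotrophin often measured after ketamine, had a difference of -0.08 (SE 0.06, adjusted p = 0.918), with -0.33 at 2 h and 0.23 at 8 h, neither of which passed. Of the 39 immediate early genes measured, 3 passed over the 4 times (Gadd45g, Per1 and Egr4), against 23 of all 19057 genes. The median of the 39 was 0.26 at 1 h, 0.15 at 2 h, 0.00 at 4 h and 0.06 at 8 h. Over the 4 times 34 of the 39 were above 0, and before adjustment 17 passed as higher and 0 as lower. Of all 19057 genes, 10178 were above 0, and before adjustment 762 passed as higher and 473 as lower. At single times 31, 31, 19 and 29 of the 39 were above 0, from 1 to 8 h. Of all genes, 9862, 10120, 9002 and 10366 were above 0 at these times. The median at 1 h was thus close to that of the glucocorticoid receptor targets described below, 0.23. The list was not tested as a set.

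In the mixed group, Hif3a, a subunit of the hypoxia-inducible factors, lay at 8.27, 8.69 and 9.02 at 2 h, against 7.40, 7.60 and 8.00 in naive mice, and differed by 0.50 over the 4 times (SE 0.10, adjusted p = 0.0351). Its call was lost in 20 of the 48 fits that left out 1 array, and when each probe kept its own variance. It was 1 of 20 hypoxia genes to pass, against 23 of all 19057 genes, and 2 dimmer Hif3a probes had 0.18 and 0.09. Mt1, a metallothionein that binds zinc and is induced by glucocorticoids, was among the brightest probes of the array and differed by 0.22 (SE 0.05, adjusted p = 0.0351), with nearly equal differences of 0.21, 0.22, 0.23 and 0.24 from 1 to 8 h. Its call was lost in 18 of the 48 fits. Pglyrp1, a secreted peptidoglycan recognition protein of innate immunity, differed by 0.52 (adjusted p = 0.00387), and a dimmer probe by 0.18 (adjusted p = 0.777). At 8 h its drug arrays lay at 8.00, 8.33 and 8.88, against 6.88, 7.76 and 7.95, with the lowest naive array well below the other naive arrays. Polr3e, a subunit of RNA polymerase III, had 0.41 and Plekhf1, an endosomal protein with a PH and a FYVE domain, had 0.43 (adjusted p = 0.0195 and 0.0151). Each had a dimmer probe that did not pass, with -0.04 for Polr3e (adjusted p = 0.976) and 0.34 for Plekhf1 (adjusted p = 0.399). The only probe that fell, ILMN_1246194, carried no gene name and fell by 0.43 (adjusted p = 0.0158), with 7.31, 7.86 and 8.06 at 8 h, against 8.48, 8.60 and 8.72 in naive mice.

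The differences followed different time courses. Of the 24 genes, 8 had their largest difference at 1 h (Nfkbia, Ddit4, Sgk1, Txnip, Gadd45g, Dusp5, Per1 and Egr4), 8 at 2 h (Mfsd2a, Ppp1r3g, Cdkn1a, Pnpla2, Fkbp5, Plekhf1, Polr3e and Hif3a), 3 at 4 h (Plin4, Sult1a1 and Tsc22d3) and 5 at 8 h (Tob2, Pglyrp1, Castor1, Mt1 and Pla1a). Without the high-background arrays 3 of these 5 no longer had it at 8 h: Tob2 had 0.41 at 8 h and 0.50 at 1 h, Pglyrp1 0.54 at 8 h and 0.55 at 4 h, and Mt1 0.21 at 8 h and 0.25 at 4 h. At single times 10 probes passed at 1 h (0.0221% of probes), 9 at 2 h (0.0199%), 3 at 4 h (0.00663%) and 1 at 8 h (0.00221%), and all of them were higher in drug-treated mice. With slide as a block the counts were 2, 0, 1 and 5 in the same order of times. The 3 probes of 4 h were Plin4, Sult1a1 and Tsc22d3. A change of the difference with time was tested directly and passed for 2 probes (0.00442%), Plin4, which had its maximum at 4 h, and Nfkbia, which had its maximum at 1 h (adjusted p = 0.0407 for each). That count changed with single arrays, and 28 of the 48 fits that left out 1 array gave 0 such probes, the fit without the array with striatal markers among them. With slide as a block it was 0 as well. At 2 h the count of 9 fell to 6 without that array and was 14 without it and the high-background arrays. The counts at 1, 2 and 4 h also depended on the naive arrays, with 3 at 1 h without naive replicate 2, 0 at 2 h without naive replicate 1 and 1 at 4 h without naive replicate 1 or 2. The F test asks for any change with time and not which time is largest. The times of the largest difference are therefore descriptions for all 24 genes.

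The 8 h comparison had more probes at a nominal p of 0.05 than those of the earlier times. At that level 4950 probes passed at 8 h (2394 higher and 2556 lower), against 900 to 1225 at the earlier times, while 1 passed after adjustment. In the fit of all 60 arrays, saline against naive had 3737 such probes at 8 h and drugs against saline had 816. Drugs against saline had 5644 at 2 h. The naive arrays of 8 h held 1 array of high background. Without naive 8 h replicate 1, the array concerned, 0 probes passed, whereas without replicate 2 or 3 the counts were 1138 and 643. Without the 5 high-background arrays 2515 probes passed nominally. The parts of background and of the naive arrays of 8 h in this comparison were not tested further.

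Each drug was set against the same naive arrays, and doses differed, so that the drugs are described side by side. Memantine had 33 called probes over the 4 times (0.0729%), 32 higher (0.0707%) and 1 lower (0.00221%), ketamine had 7 and PCP had 7, all higher (0.0155% each). The last 2 counts moved with single arrays, from 3 to 10 for ketamine and from 4 to 8 for PCP, which had 4 in 24 of the 48 fits that left out 1 array and also without the high-background arrays. Of the 24 genes, 20 passed with memantine, 7 with ketamine and 6 with PCP. Plin4, Mfsd2a, Ppp1r3g, Nfkbia and Tsc22d3 passed with all 3 drugs, Sult1a1 and Ddit4 with ketamine and memantine, and Pglyrp1 with memantine and PCP. Without the array with striatal markers ketamine kept 6, and its Tsc22d3 difference missed the threshold (adjusted p = 0.0685). For 20 of the 24 genes memantine had the highest value, for Hif3a and Mt1 ketamine, and for Fkbp5 and Pglyrp1 PCP.

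A direct F test among the 3 drugs over the 4 times called 0 probes (0%), with 2148 at a nominal p of 0.05, where 2264 would be expected by chance alone, and a lowest adjusted p of 0.914. The order of the drugs is accordingly a description. Plin4 differed from naive mice by 0.89 with ketamine (SE 0.13), 1.29 with memantine and 0.90 with PCP, and at 4 h the arrays were at 8.33, 8.75 and 8.86 with ketamine, 9.11, 9.43 and 10.04 with memantine, and 8.61, 8.72 and 9.06 with PCP, against 7.22, 7.25 and 7.37 in naive mice. Cdkn1a differed by 0.48, 0.91 and 0.46, and Sgk1 by 0.52, 0.88 and 0.44, in the same order of drugs. At 1 h Sgk1 was at 13.24, 13.47 and 13.52 with ketamine, 13.09, 13.68 and 13.71 with memantine, and 12.52, 12.91 and 13.23 with PCP. At 2 h Nfkbia was at 9.50, 9.57 and 9.67 with ketamine, 10.15, 10.23 and 10.50 with memantine, and 9.79, 9.91 and 10.01 with PCP, against 9.16, 9.18 and 9.19 in naive mice. None of the 9 drug arrays overlapped with the naive arrays, and the 3 memantine arrays were the highest.

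By drug and time, ketamine had 6 called probes at 1 h (0.0133%), 0 at 2 h, 1 at 4 h (0.00221%) and 0 at 8 h in limma's test, with 910 probes at a nominal p of 0.05 at 2 h, where its group held the array with striatal markers, and 3849 at 8 h. Memantine had 4 at 1 h (0.00883%), 17 at 2 h (0.0375%), 10 at 4 h (0.0221%) and 2 at 8 h (0.00442%). PCP had 0 at 1 h and 0 at 2 h, with 2236 and 1102 probes at a nominal p of 0.05, 1 at 4 h (0.00221%) and 4 at 8 h (0.00883%). The 2 h and 4 h calls of memantine held Plin4, Cdkn1a, Mfsd2a and Tsc22d3 at both times, with Sgk1, Txnip, Gadd45g, Nfkbia, Egr4, Dusp5, Ppp1r3g, Ddit4, Polr3e and Plekhf1 at 2 h only, and Sult1a1, Pnpla2, Xdh and Slc27a3 at 4 h only. The probe called with ketamine and with PCP at 4 h was Plin4. The PCP calls of 8 h were Plin4 and an unnamed probe, both higher, and Mcam and Zdhhc15, both lower, in a comparison with 1 PCP and 1 naive array of high background.

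**Figure D2:**
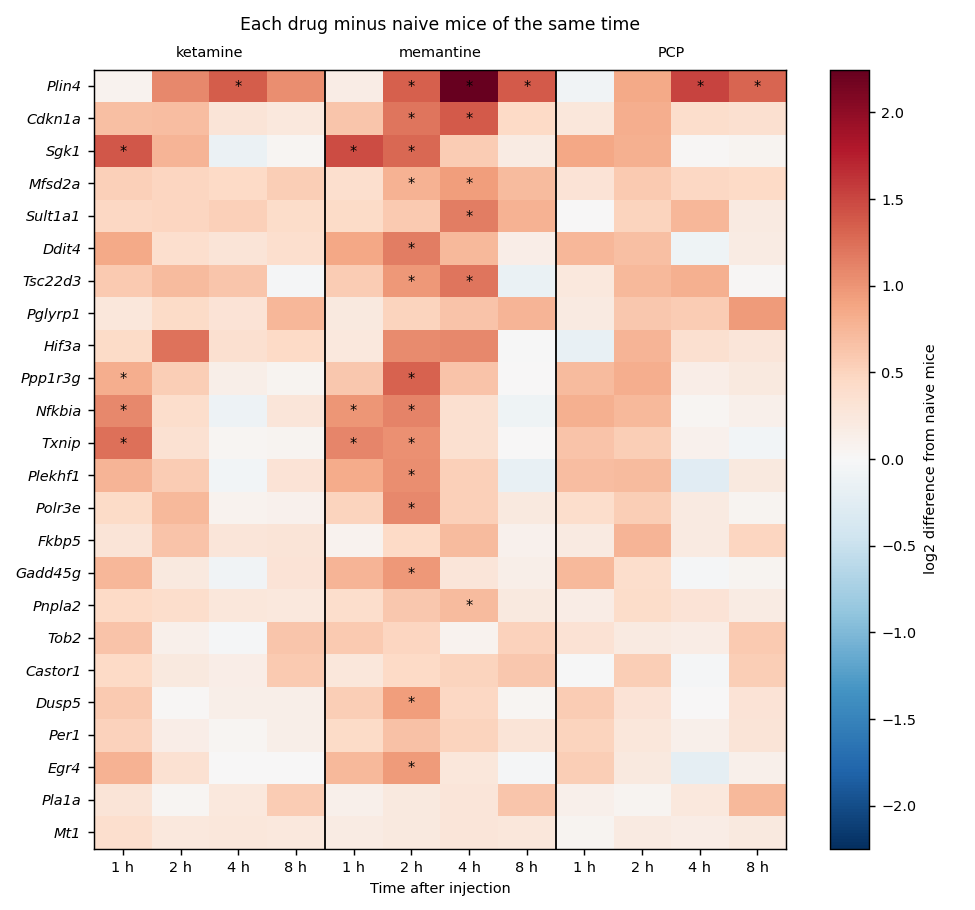
Log2 difference of each drug from naive mice of the same time (color) for the 24 called genes (rows) in the 12 combinations of drug and time (columns, 3 arrays against 3). Asterisks mark an adjusted p under 0.05, and memantine at 2 and 4 h holds most of them.

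The saline arrays give the level of an injection without drug, and they share arrays with each comparison, so that the values are only set side by side. Over the 4 times the drugs differed from saline for 11 probes, all higher (0.0243%), and saline differed from naive mice for 0 in limma's test (0%, with 1781 probes at a nominal p of 0.05). At single times drugs against saline called 3 probes at 1 h (0.00663%), 46 at 2 h (0.102%), 2 at 4 h (0.00442%) and 0 at 8 h. Of the 46 probes, 25 were higher (0.0552%) and 21 lower (0.0464%). Saline against naive called 2 probes at 2 h, both higher (0.00442%), and 0 at the other times. Over the 4 times all 24 genes had differences above 0 in both drugs minus saline and saline minus naive. The genes were called for lying above these same naive arrays, which favors both signs. The share over all probes was not taken, so the count is no evidence of an injection response in each gene. In drugs minus saline over the 4 times, 9 of the 24 genes passed by the same probe (Plin4, Mfsd2a, Ppp1r3g, Nfkbia, Cdkn1a, Sult1a1, Ddit4, Sgk1 and Txnip), and Tsc22d3 passed by its second probe.

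The sizes varied by gene. Plin4 had 0.83 (SE 0.09) for drugs minus saline and 0.20 (SE 0.11) for saline minus naive, Cdkn1a 0.52 and 0.10, and Txnip 0.42 and 0.03. Sult1a1 had 0.46 and 0.07. For Per1 the values were 0.11 and 0.22, for Fkbp5 0.16 and 0.21, for Hif3a 0.22 and 0.28, and for Pglyrp1 0.24 and 0.28. None of these 4 passed in either. Slc2a1, the glucose transporter of the blood-brain barrier, had 0.30 for drugs minus naive (adjusted p = 0.139), 0.33 for drugs minus saline and -0.03 for saline minus naive. Saline Plin4 lay at 8.05, 8.07 and 8.37 at 8 h, between the drug arrays, whose lowest value was 8.37, and the naive arrays, whose highest was 7.78.

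**Figure D3:**
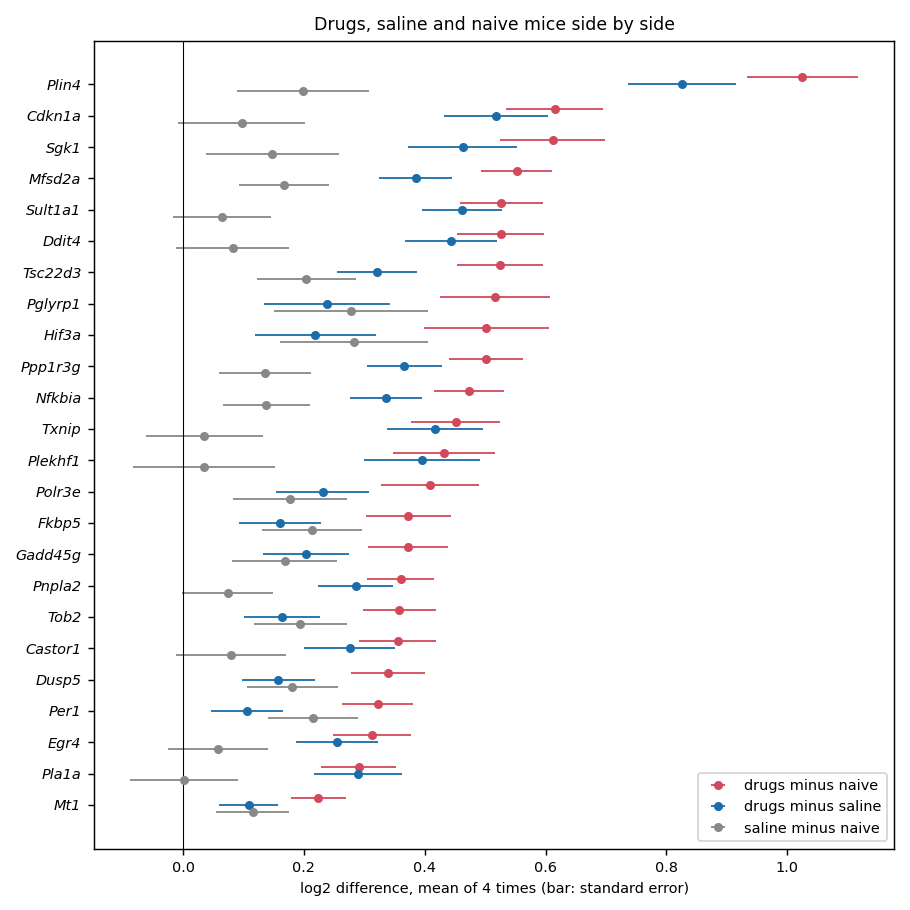
Differences over the 4 times on the log2 scale, with standard errors, for the 24 called genes: drugs minus naive, drugs minus saline and saline minus naive. The contrasts share arrays. Plin4 has 0.83 against saline. Per1, Fkbp5 and Hif3a have the higher value in saline minus naive, but they passed neither there nor against saline. The difference between these values was not tested.

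Glucocorticoid receptor targets were the list with the most calls, a list put together with earlier results of these samples known. Of 40 genes measured, 14 passed over the 4 times, all higher, and 36 had a difference above 0, with a median of 0.28. Over all 19057 genes 23 passed, 10178 were above 0 and the median was 0.01. The targets' median was 0.23 at 1 h, 0.33 at 2 h, 0.21 at 4 h and 0.10 at 8 h, and 0.25 with ketamine, 0.36 with memantine and 0.19 with PCP. It was 0.15 for drugs minus saline and 0.11 for saline minus naive. Targets that did not pass included Pdk4 (0.38, adjusted p = 0.131), Map3k6 (0.29), Klf9 (0.05) and Zbtb16 (0.06). Without the high-background arrays the median was 0.24.

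Other lists had few members past the threshold, where 23 of all 19057 genes passed. Fuel switching and lipid droplet genes had 2 of 28 (Plin4 and Pnpla2), with a median of 0.03 and -0.11 for Plin2, another lipid droplet coat protein. Insulin and FOXO signaling had 2 of 23 (Ppp1r3g and Txnip), mTOR brakes 2 of 13, MAP kinase phosphatases and their feedback 1 of 17, metallothioneins and zinc genes 1 of 7 and inflammatory genes 1 of 29 (Nfkbia). None of 21 heat shock genes, 22 unfolded protein response genes, 21 interferon genes, 20 glutamate receptor subunits, 11 GABA-A receptor subunits, 33 ribosomal protein genes or 34 respiratory chain genes passed. The genes the study placed in clusters C1 and C2 were chosen on these samples and are no independent evidence, with 3 of 7 and 4 of 8 called and medians of 0.32 and 0.33.

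Markers of other cells and regions were described in the same way. Endothelial markers had 1 of 17 called, Mfsd2a, and a median of -0.04, and among them Slc2a1 is given above. None of the other marker lists had a call, where 23 of all 19057 genes were called. Choroid plexus markers had a median difference of -0.83 at 2 h and 0.96 at 4 h, and Ttr, the transthyretin made by that tissue, ranged from 11.57 to 15.83 on the drug arrays of 4 h, against 11.08, 11.37 and 12.17 on the naive arrays. With the mean of the choroid plexus markers as a covariate, 28 of the 29 probes kept their call, Pla1a being the exception. Striatal markers had a median of 0.28 at 2 h with the ketamine array described above.

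**Figure D4:**
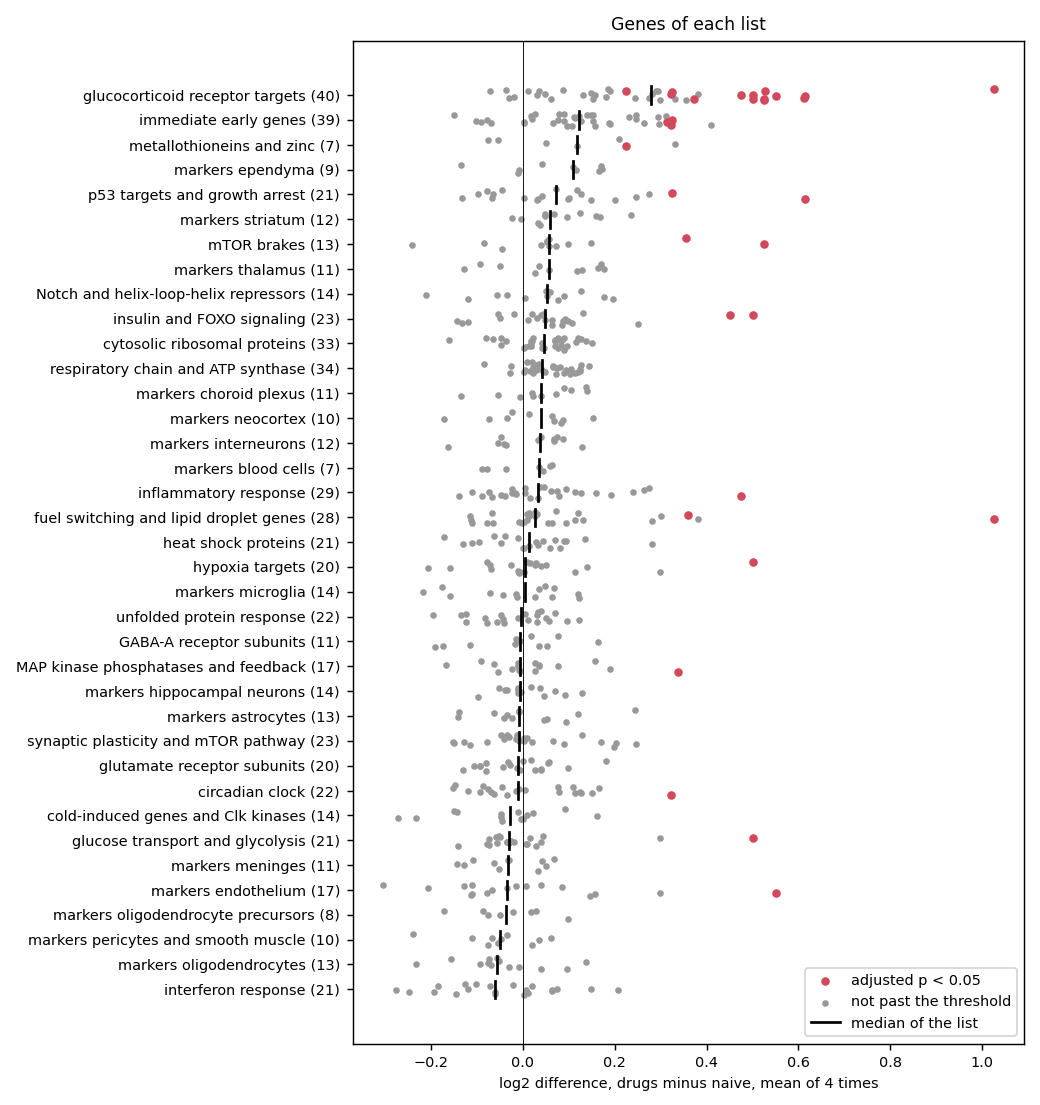
Log2 difference, drugs minus naive over the 4 times, of the measured genes of each list, with the number of genes in parentheses; clusters C1 and C2 are not drawn. Red points passed an adjusted p of 0.05, grey points did not, and black bars are medians. The 40 glucocorticoid receptor targets have 14 red points and a median of 0.28, and the medians of the other lists drawn lie between -0.06 and 0.12. The lists were chosen with earlier results of these data known, so their counts and medians are no independent evidence.

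The differences are also described slide by slide, on the same arrays that called the genes. Equal signs over slides follow in part from that calling and are no separate evidence, and the share over all probes was not taken. Each array was taken relative to the midpoint of the drug and naive means of its time, and on each of the 10 slides the mean of the drug arrays was set against that of the naive arrays. Plin4 was higher on 10 of 10 slides (from 0.14 to 1.52), as were Mfsd2a (0.31 to 0.96), Cdkn1a (0.26 to 0.98), Sgk1 (0.34 to 0.98), Tsc22d3 (0.35 to 0.80) and Nfkbia (0.12 to 0.81). Pnpla2 and Dusp5 were higher on 9 of 10, and the unnamed probe was lower on 9 of 10.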

How the data were processed

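Total hippocampal RNA, pooled from pairs of mice, was hybridized by the authors to MouseWG-6 bead arrays. The deposited intensity values were mean bead signals per probe on a linear scale, with no background removed and no scaling between arrays. The authors also deposited log2 values, background-subtracted and quantile-normalized together with arrays of another tissue, which served as an alternative; each of the 60 columns was closest to its own array (mean absolute difference 0.113). Here intensities were corrected with normexp (offset 50, which compresses the folds of dim probes), quantile-normalized over 60 arrays and log2-transformed in limma 3.58.1 under R 4.3.3.

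Groups were taken from the labels. A model with a mean for each of 16 groups of 3 was fitted to the 48 arrays, with Benjamini-Hochberg adjustment over 45281 probes and a threshold of 0.05. A separate fit of all 60 arrays gave the saline values. P-values measure only the spread between pools. The number of arrays limits the precision. The fit was tested on simulated data.

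Named genes were those of largest change past the threshold over all times (15 in each direction), at single times (8), within each gene list (6) or by an F test (8), and a fixed set of 24 names. The brightest probe stood for a gene. The compared samples, gene lists and names were chosen with earlier results of these data known. Gene symbols came from the platform annotation (34885 probes with 1 symbol, 18 with several, 10378 with none).

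Replicate numbers did not pair the arrays: deviations from group means correlated at -0.00856 between arrays of the same number and at 0.00527 between others. Arrays of 1 slide correlated at 0.175, and arrays of different slides at -0.0156. Alternatives covered background correction, normalization, dim probes, slide, replicate number, variances, a choroid plexus covariate and left-out arrays.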

Additional observations from a re-analysis of the deposited data

Results flagged for a closer look

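The difference between drug-treated and naive mice changed with time for Plin4 (adjusted p = 0.0407 in limma's F test), with 0.05, 1.09, 1.71 and 1.24 at 1, 2, 4 and 8 h. It also changed for Nfkbia (adjusted p = 0.0407), with 0.96, 0.75, 0.10 and 0.09. Of the 48 fits that left out 1 array, 28 called 0 probes in this test, 5 called 1 and 15 called 2, and the count was 0 without ketamine 2 h replicate 2, the array with striatal markers.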

How the results depend on the processing

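No called gene changed direction over the 4 times under the alternatives run. Over the 4 times 29 probes passed, and the count was 44 among the brighter 50% of probes and 46 with slide as a block. With each probe's own variance, 73 probes passed the study's cutoffs in a t test of the same contrast. These cutoffs were a nominal p of 0.0005 and an absolute log2 difference above 0.3 at 1 time or more. The study applied these cutoffs in an ANOVA of drug and time within each tissue. It also applied them in ANOVAs of each drug separately, with folds over saline. None of these was repeated, so the count here is not set against theirs. With slide as a block the count was 2 at 1 h, 0 at 2 h, 1 at 4 h and 5 at 8 h, 12 for ketamine, 53 for memantine, 0 for the change with time and 22 against saline. Without background correction it was 14 at 2 h, 5 at 4 h, 4 at 8 h, 16 for ketamine, 57 for memantine, 1 for the change with time and 18 against saline. On the authors' values it was 5 at 4 h, 13 for ketamine, 50 for memantine, 1 for the change with time and 18 against saline. Among the brighter probes it was 14 at 2 h, 5 at 4 h, 45 at 8 h, 16 for ketamine, 56 for memantine and 18 against saline. Without the high-background arrays it was 14 at 2 h and 4 for PCP. Chosen after seeing the data, normalizing anew without them gave 16 and 4, and leaving out the array with striatal markers as well gave 14 and 4. The causes were not tested.

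Leaving out 1 array at a time gave 23 to 38 over the 4 times, 3 to 11 at 1 h, 0 to 11 at 2 h, 1 to 4 at 4 h, 0 to 1138 at 8 h, and, by drug, 3 to 10 with ketamine, between 27 and 40 with memantine and between 4 and 8 with PCP, 0 to 2 for the change with time and 0 to 1 among drugs. Naive arrays decided most of these: at 1 h 6, 3 and 5 without naive replicates 1, 2 and 3, at 2 h 0, 1 and 1, and at 4 h 1, 1 and 2. At 2 h the count was 5 without ketamine replicate 3 or PCP replicate 1. At 8 h it was 0, 1138 and 643 without naive replicates 1, 2 and 3, 21 without memantine replicate 2, 8 without PCP replicate 1, 3 without PCP 4 h replicate 3, and 2 without memantine replicate 1 or 3, PCP replicate 3 or PCP 4 h replicate 2. For ketamine it was 3 without its replicate 3 of 4 h or of 8 h and 4 without its replicates 2 or 3 of 1 h or naive replicate 1 of 2, 4 or 8 h. For PCP 24 of the 48 fits gave 4, from arrays of every treatment and time, and among drugs it was 1 without PCP 8 h replicate 1. Fits that did not call a gene numbered 38 of 48 for Pla1a, 25 for Egr4, 20 for Hif3a and 18 for Mt1. With replicate number as a block 29 probes passed over the 4 times, 30 for memantine and 5 for PCP, and Pla1a lost its call. Array position could not be fitted, since it follows the groups. With each probe's own variance in place of shared ones, after adjustment, Hif3a lost its call. Signal over background limits the dim probes, whose folds are compressed.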
